A study of Mus musculus with 6 samples.

Results

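The ABCC genes are the subfamily of ATP-binding cassette (ABC) transporters that holds the multidrug resistance proteins (MRPs). Described here are ABCC1, ABCC2, ABCC3, ABCC4, ABCC5, ABCC6, ABCC8, ABCC9, ABCC10 and ABCC11, 10 of the 58735 genes in the table. They were taken by gene symbol, with earlier results of these data known. RNA-Seq covered 22Rv1, a human prostate cancer cell line, in 2 groups of 3 libraries. The parental group was given vehicle. The resistant group was the subline 22Rv1 BL-B01D1_R, selected from the same line in rising concentrations of BL-B01D1, an antibody-drug conjugate against EGFR and HER3 that carries a camptothecin-derived topoisomerase I inhibitor. There was 1 such subline, so the spread between libraries does not cover a repeated selection, and no source used here says that the libraries came from separate cultures.

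MRPs use ATP to export organic anions, many of them drugs or metabolites joined to glutathione, glucuronide or sulfate. ABCC1 to ABCC6, ABCC10 and ABCC11 are classed as such exporters. ABCC8 and ABCC9 encode the sulfonylurea receptors SUR1 and SUR2, which export nothing and instead regulate ATP-sensitive potassium (KATP) channels. ABC transporters that pump camptothecin derivatives out of cells are a known route to resistance against topoisomerase I inhibitors.

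Between 13821639 and 17251491 counts fell on genes in each library, and 3 counts corresponded to 0.174 to 0.216 CPM (counts scaled to a common, TMM-adjusted library size). All 10 luminal prostate markers examined were expressed. At a false discovery rate (FDR) below 0.05 in edgeR's test 6 of them were higher and 3 lower in resistant cells, with a median log2 fold change of 0.12. Of all genes tested, 17.1% were higher and 18.4% lower at that FDR. Basal and leukocyte markers were at or near 0, with none of these 6 genes above 5 counts in a library. Of the markers of other cell types, CHGA (neuroendocrine), LUM (fibroblast) and ALB (hepatocyte) were expressed and were lower in resistant cells, with log2 fold changes of −2.26, −1.74 and −1.77. COL1A1 was also lower (log2 fold change −0.28, FDR 0.0348 from edgeR), SYP had a log2 fold change of 0.04 (FDR 0.531), and COL1A2, APOA1 and TTR had at most 6 counts in a library. The summed level of the 3 hepatocyte markers was 302 to 316 CPM in parental and 88.7 to 92.7 CPM in resistant libraries, that of the 5 fibroblast markers 111 to 115 and 39.6 to 44.3 CPM and that of the 5 neuroendocrine markers 135 to 149.6 and 109.9 to 118 CPM. Their part in the ABCC results was not tested.

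The groups were compared for each gene with edgeR's quasi-likelihood test over the 17142 genes with enough counts. Genes were called where the FDR was below 0.05 and the log2 fold change exceeded 1 in size. Of the 10 members, 9 were tested, all but ABCC3. Called higher in resistant cells were 3 members (ABCC1, ABCC2 and ABCC9), against 2.53% of all genes tested, and called lower was 1 member (ABCC8), against 2.84%. By FDR alone, 5 members were higher (ABCC6 and ABCC10 in addition) and 2 were lower (ABCC5 in addition), whereas 17.1% of all genes tested were higher and 18.4% were lower. ABCC9 passed the filter on low counts only through the resistant libraries, so its presence among the genes tested already favored a difference. The median log2 fold change was 0.59 over the tested members and 0.0038 over all genes tested. In 7 of the members the 2 groups of libraries did not overlap, 5 with the resistant libraries above and 2 with them below, and the same held for 44.8% of all genes tested.

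**Figure D1:**
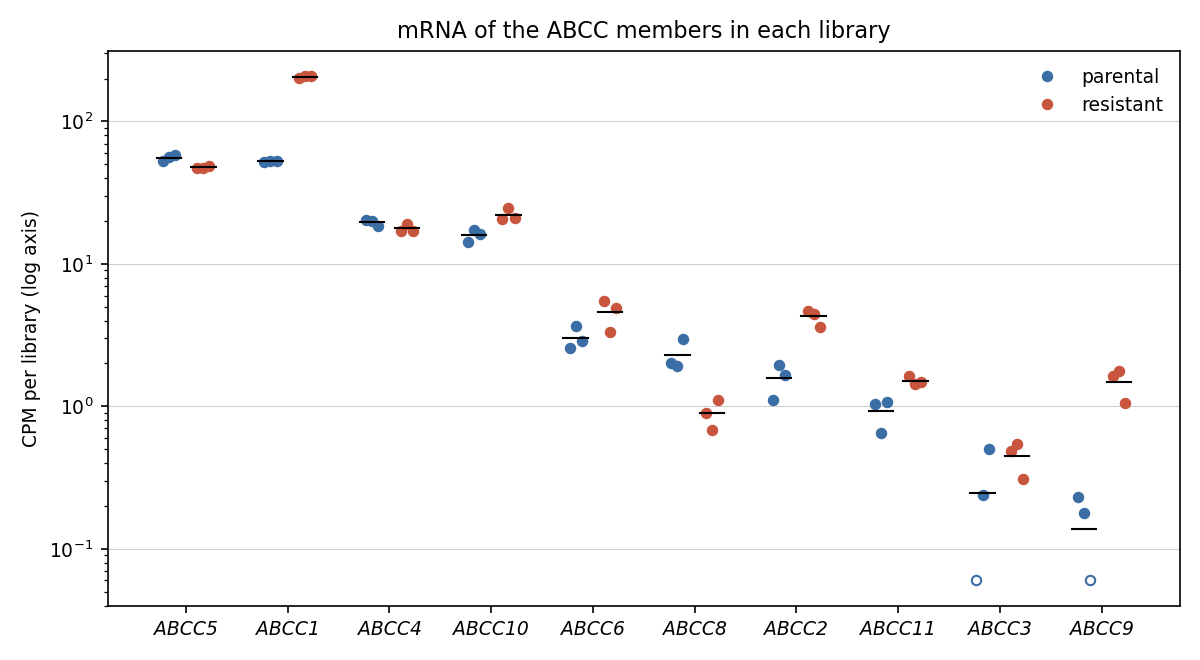
Level of each ABCC member in CPM on a log axis, with 1 point per library, parental in blue and resistant in red, and a black line at each group's mean. Open points mark libraries with 0 counts, which have no place on a log axis. ABCC1 sits between 52.1 and 52.6 CPM in parental and between 201 and 209 CPM in resistant libraries, while ABCC3 and parental ABCC9 stay near the level of 3 counts.

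ABCC1 (MRP1; ENSG00000103222, chromosome 16 of hg38, 15949577 to 16143074) exports glutathione conjugates and many unmodified drugs, the latter together with glutathione. Its counts were 899, 884 and 727 in parental and 3338, 3068 and 3359 in resistant libraries. In CPM these were 52.1, 52.6 and 52.4 against 201, 209 and 207. Every resistant library lay far above every parental library, and within each group the libraries were close together. A two-sided exact permutation test gave p = 0.1, the lowest value that 3 against 3 libraries can reach. The fold change was 3.92, a log2 fold change of 1.97 with a 95% interval of 1.89 to 2.05 (FDR 1.51e-34 from edgeR). By p-value ABCC1 stood at place 17 of all genes tested, and by log2 fold change at place 120.

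ABCC2 (MRP2; ENSG00000023839, chromosome 10, 99782640 to 99852594) is the MRP of the apical membrane and carries conjugates into bile and urine. Its counts were 19, 33 and 23 in parental and 78, 66 and 59 in resistant libraries, or 1.10, 1.97 and 1.66 CPM against 4.71, 4.49 and 3.64 CPM. The lowest resistant library was above the highest parental one. The log2 fold change of 1.44 had a 95% interval of 0.96 to 1.93 (FDR 4.40e-06 from edgeR). The lower bound was under the call threshold, and in glmTreat, which asks whether a change exceeds that threshold, the FDR was 0.378.

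ABCC3 (MRP3; ENSG00000108846, chromosome 17, 50634777 to 50692252), which exports glucuronides across the basolateral membrane, was close to the detection limit. It had 0, 4 and 7 counts in parental and 8, 8 and 5 in resistant libraries. The ranges of the groups overlapped. The ratio of summed counts, resistant over parental and scaled for depth, was 1.93 with a 95% exact binomial interval of 0.887 to 4.42, which covers counting error only. No difference was detectable within that interval at this depth, and without a filter on low counts the FDR from edgeR was 0.493.

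ABCC4 and ABCC5 export cyclic nucleotides and nucleotide analogs, and ABCC4 also prostaglandins. ABCC4 (MRP4; ENSG00000125257, chromosome 13, 95019829 to 95301475) was at 20.5, 20.1 and 18.4 CPM in parental and 17.1, 19.2 and 16.9 CPM in resistant libraries. One resistant library was above the lowest parental one, and the log2 fold change of −0.16 (95% interval −0.33 to 0.02, FDR 0.172 from edgeR) did not pass the test. ABCC5 (MRP5; ENSG00000114770, chromosome 3, 183919934 to 184018015) was at 53.0, 56.5 and 57.9 CPM in parental and 47.3, 47.0 and 49.1 CPM in resistant libraries. All resistant libraries were below all parental ones, by a log2 fold change of −0.22 (95% interval −0.33 to −0.11, FDR 0.00168 from edgeR).

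ABCC6 (ENSG00000091262, chromosome 16, 16148928 to 16223522) serves the release of ATP from liver cells, and its loss causes the mineralization disorder pseudoxanthoma elasticum. It was at 2.55, 3.69 and 2.88 CPM in parental and 5.49, 3.33 and 4.87 CPM in resistant libraries. Resistant library 2 lay below parental library 2, so the groups overlapped. The log2 fold change was 0.59 (95% interval 0.17 to 1.01, FDR 0.0219 from edgeR), and the FDR rose above 0.05 without parental library 1 or 3 or resistant library 1 or 3, reaching 0.165. The table also lists the pseudogenes ABCC6P1 and ABCC6P2, near copies of part of ABCC6, whose log2 fold changes of −0.18 and 0.39 had FDRs of 0.674 and 0.607 in the same edgeR test. How reads shared among these copies were assigned is not stated, so the value of ABCC6 is uncertain.

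ABCC10 (MRP7; ENSG00000124574, chromosome 6, 43427366 to 43450430), known for the export of taxanes and other lipophilic drugs, was at 14.2, 17.3 and 16.2 CPM in parental and 20.6, 24.8 and 21.0 CPM in resistant libraries. The groups did not overlap, and the fold change of 1.39 (log2 fold change 0.48, 95% interval 0.29 to 0.67, FDR 5.89e-05 from edgeR) was under the threshold for a call. DLK2 overlaps ABCC10 on the other strand with 17 to 46 counts in a library, against 225 to 365 for ABCC10.

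ABCC11 (MRP8; ENSG00000121270, chromosome 16, 48166910 to 48247568), the transporter behind wet and dry earwax types, had 18, 11 and 15 counts in parental and 27, 21 and 24 in resistant libraries. Although the groups did not overlap, the log2 fold change of 0.71 (95% interval 0.03 to 1.40) missed the threshold at an FDR of 0.101 from edgeR. LONP2, on the other strand, overlaps ABCC11 and had 1991 to 2679 counts in a library. The sources used here do not say whether reads were counted by strand, and without strand the reads of overlapping genes cannot be told apart.

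**Figure D2:**
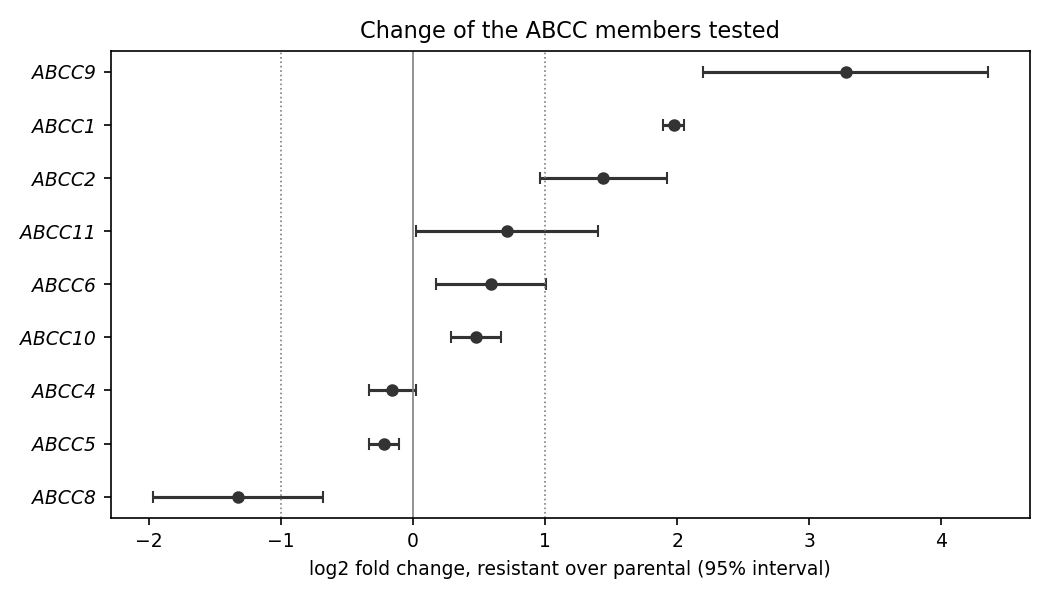
Log2 fold change of the 9 tested members, resistant over parental, with 95% intervals from edgeR's quasi-likelihood fit. Dotted lines mark the fold-change threshold of a call. The interval of ABCC1, from 1.89 to 2.05, is the narrowest of those on the right of the upper threshold, and that of ABCC9, from 2.20 to 4.35, is the widest.

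The sulfonylurea receptor genes moved in opposite directions. ABCC9 (SUR2; ENSG00000069431, chromosome 12, 21797401 to 21942529) had 4, 3 and 0 counts in parental and 27, 26 and 17 in resistant libraries. It thus went from near the detection limit to 1.48 ± 0.38 CPM (SD, n = 3). The ratio of summed counts was 10.1 with a 95% exact binomial interval of 4.64 to 26.0, and edgeR gave a log2 fold change of 3.28 (95% interval 2.20 to 4.35, FDR 3.15e-06). Because the parental counts are so few, the size of the change depends on the prior count, and a prior count of 5 gave a log2 value of 1.97.

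ABCC8 (SUR1; ENSG00000006071, chromosome 11, 17392498 to 17476879), the receptor of pancreatic beta cells, had 35, 32 and 41 counts in parental and 15, 10 and 18 in resistant libraries. All resistant libraries were below all parental ones. The log2 fold change was −1.32 (95% interval −1.97 to −0.68, FDR 9.46e-04 from edgeR), and the ratio of summed counts was 0.401, with an exact binomial interval of 0.275 to 0.577. The call was lost with glmTreat (FDR 1) and with limma on log2(FPKM + 1), where the difference was −0.14 (FDR 0.0581).

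Each sulfonylurea receptor assembles with a pore subunit of the KCNJ family, and each of these genes lies next to one. KCNJ8, whose channel pairs with SUR2 in vascular smooth muscle, is 21820 bases from ABCC9. It was at 0.754, 0.953 and 0.576 CPM in parental and 9.53, 9.72 and 7.70 CPM in resistant libraries. KCNJ8 rose with a log2 fold change of 3.53 (SE 0.22, FDR 5.37e-17 from edgeR). Like ABCC9, it passed the filter on low counts, 0.606 CPM in 3 libraries, only through the resistant libraries. Both genes of this pair were higher there than in parental libraries, although ABCC9 stood only at percentile 2.13 of the genes tested, ranked by mean FPKM.

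KCNJ11, whose channel pairs with SUR1 in beta cells, is 3167 bases from ABCC8. It was at 10.3, 9.59 and 10.3 CPM in parental and 7.72, 7.82 and 7.76 CPM in resistant libraries. The log2 fold change of −0.37 (SE 0.12, FDR 0.0155 from edgeR) was in the direction of ABCC8 and smaller than the threshold of a call. Per length, KCNJ8 went from 0.306 ± 0.076 to 3.62 ± 0.45 FPKM (SD, n = 3; FPKM is CPM per kilobase of gene length), which placed it above the 2.42 ± 0.015 FPKM of KCNJ11 in resistant cells, whereas KCNJ11 at 3.14 ± 0.13 FPKM was the higher of the pore genes in parental cells. ABCC9 remained at 0.128 ± 0.033 FPKM in resistant cells, below both.

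**Figure D3:**
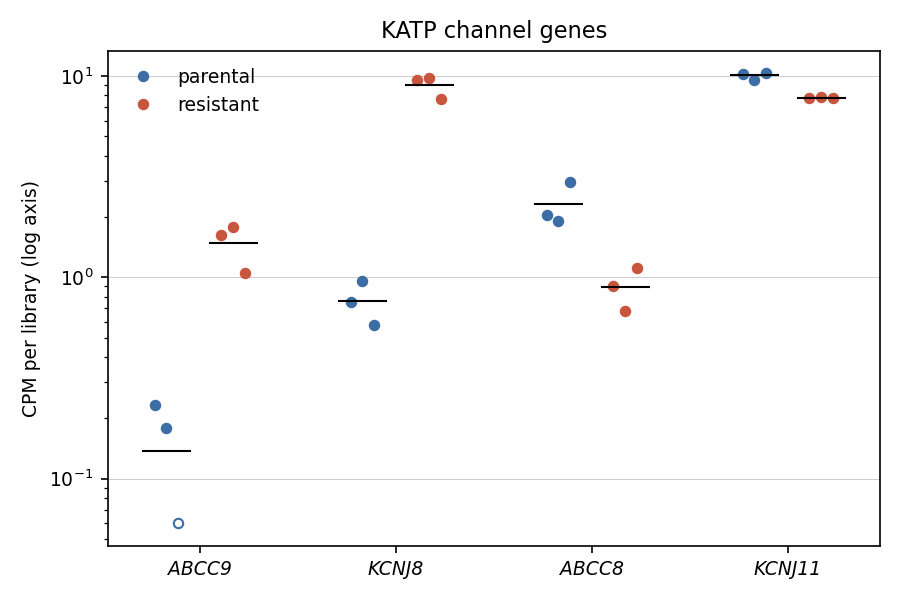
Level of the sulfonylurea receptor genes ABCC9 and ABCC8 and of the pore genes KCNJ8 and KCNJ11 in CPM on a log axis, with 1 point per library (parental blue, resistant red), black lines at group means and an open point for 0 counts. In the ABCC9 and KCNJ8 pair the resistant libraries are above the parental ones, and in the ABCC8 and KCNJ11 pair they are below.

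Levels of different members were compared per gene length. In parental cells ABCC1 was the highest at 6.92 ± 0.032 FPKM (SD, n = 3), followed by ABCC5 at 4.88 ± 0.22, ABCC4 at 2.28 ± 0.13 and ABCC10 at 1.96 ± 0.20 FPKM. The libraries of ABCC4 and ABCC10 overlapped, so their order was within the spread. ABCC6 came next at 0.402 FPKM, and ABCC2 and ABCC8, which did not differ beyond their spread, at 0.201 and 0.182 FPKM. ABCC11, ABCC3 and ABCC9 stood at 0.128 FPKM or lower, the last 2 overlapping.

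In resistant cells ABCC1 was at 27.1 ± 0.50 FPKM (SD, n = 3), and ABCC5 was again next at 4.18 ± 0.096 FPKM. ABCC10 at 2.74 ± 0.29 FPKM was now above ABCC4 at 2.05 ± 0.14 FPKM with no overlap between libraries. ABCC6 and ABCC2 overlapped at 0.603 and 0.546 FPKM, and ABCC8 and ABCC3 overlapped at the lowest levels. ABCC1 moved from percentile 61.4 to percentile 89.7 of the genes tested, ranked by mean FPKM.

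The summed level of the 10 members was 16.4, 17.4 and 17.1 FPKM in parental and 37.1, 38.4 and 37.7 FPKM in resistant libraries, 2.22 times as high by the group means. Without ABCC1 the sums were 9.56, 10.4 and 10.2 FPKM against 10.5, 10.9 and 10.4 FPKM, and the groups overlapped. ABCC1 thus made up 97.6% of the net difference in the sum. Among the other members, rises such as that of ABCC10 (1.96 to 2.74 FPKM) were partly offset by falls such as that of ABCC5 (4.88 to 4.18 FPKM). Its share of the sum was 40.7% ± 1.00 (SD, n = 3) in parental and 72.0% ± 0.46 (SD, n = 3) in resistant libraries. The share of ABCC5 was 28.7% and 11.1%, in that order, and the share of ABCC4 was 13.4% and 5.44%.

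**Figure D4:**
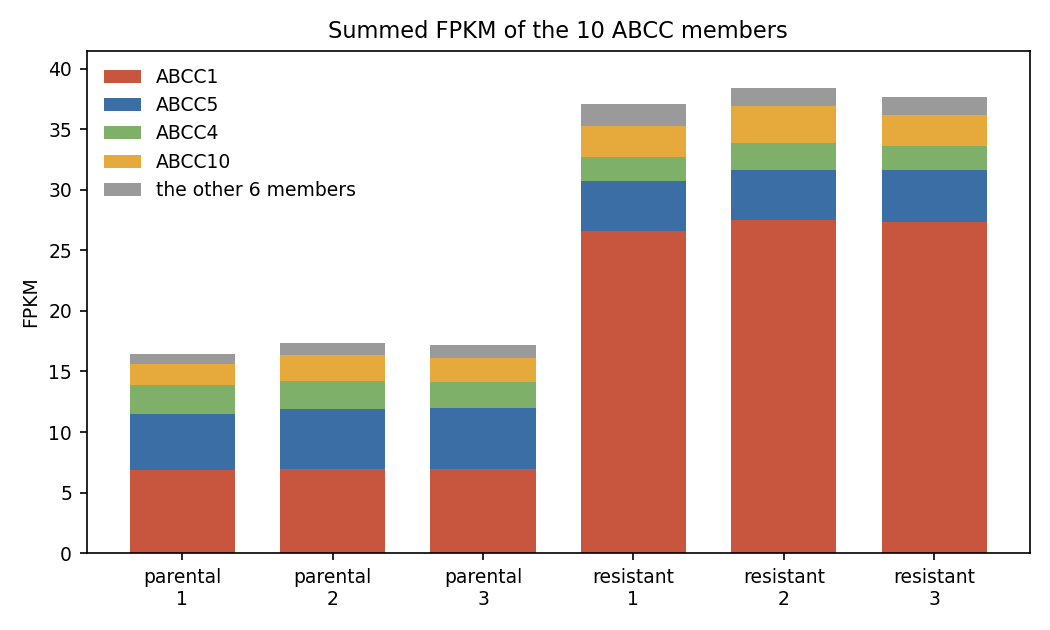
Summed FPKM of the 10 ABCC members in each library, stacked by member, with 1 bar per library. The red segment, ABCC1, is between 6.88 and 6.95 FPKM in parental and between 26.6 and 27.5 FPKM in resistant libraries, and the rest of each bar is between 9.56 and 10.9 FPKM.

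ABCB1, the gene of P-glycoprotein, had at most 7 counts in a library. ABCG2, the half-transporter best known for export of camptothecin derivatives, was set beside ABCC1 in the same libraries. In parental cells ABCC1 was at 7.30, 8.18 and 10.5 times the FPKM of ABCG2. In resistant cells ABCG2 was at 3.23, 3.15 and 3.22 times the FPKM of ABCC1, so the order of these genes was reversed in all 3 libraries. Of the ABC genes outside the members, ABCG2 included, 23 were tested, with a median log2 fold change of 0.07. Called higher were 2, ABCG2 among them, and called lower were 2, against 2.53% and 2.84% of all genes tested. By FDR 9 were higher and 4 lower, where 17.1% of all genes tested were higher and 18.4% lower.

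The remaining genes of the subfamily were close to the detection limit. CFTR, the chloride channel also named ABCC7, had 5, 3 and 1 counts in parental and 2, 2 and 5 in resistant libraries. ABCC12 had 1 count in all 6 libraries together, although it lies beside ABCC11. The pseudogene ABCC13 had at most 3 counts in a library, and so did the antisense RNA ABCC5-AS1.

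ABCC1 and ABCC6 are neighbors, 5854 bases apart, and both were higher in resistant cells, so the genes around them were examined. Of the 20 tested genes within 1 Mb of ABCC1, 3 were higher, ABCC6 among them, and 4 were lower by FDR. Over all genes tested, 17.1% were higher and 18.4% lower by FDR. The median log2 fold change of these 20 genes was −0.084, against 0.0038 over all genes tested. Apart from ABCC6, the nearest tested protein-coding gene was FOPNL, a centrosomal protein gene 60952 bases away, with a log2 fold change of 0.22 (SE 0.05, FDR 8.90e-04 from edgeR).

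The neighbor called in this window was MYH11, the smooth muscle myosin heavy chain gene, 92544 bases from ABCC1. It went from a mean of 2.35 to 13.4 CPM, a log2 fold change of 2.47 (SE 0.17, FDR 1.35e-15 from edgeR). NDE1, which overlaps MYH11 on the other strand, fell by 0.34 on the log2 scale (FDR 9.36e-05 from edgeR). NOMO3, on the far side of ABCC6, had a log2 fold change of 0.0054 (FDR 0.983 from edgeR). Log2 fold changes in the window ran from −0.44 to that of MYH11.

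**Figure D5:**
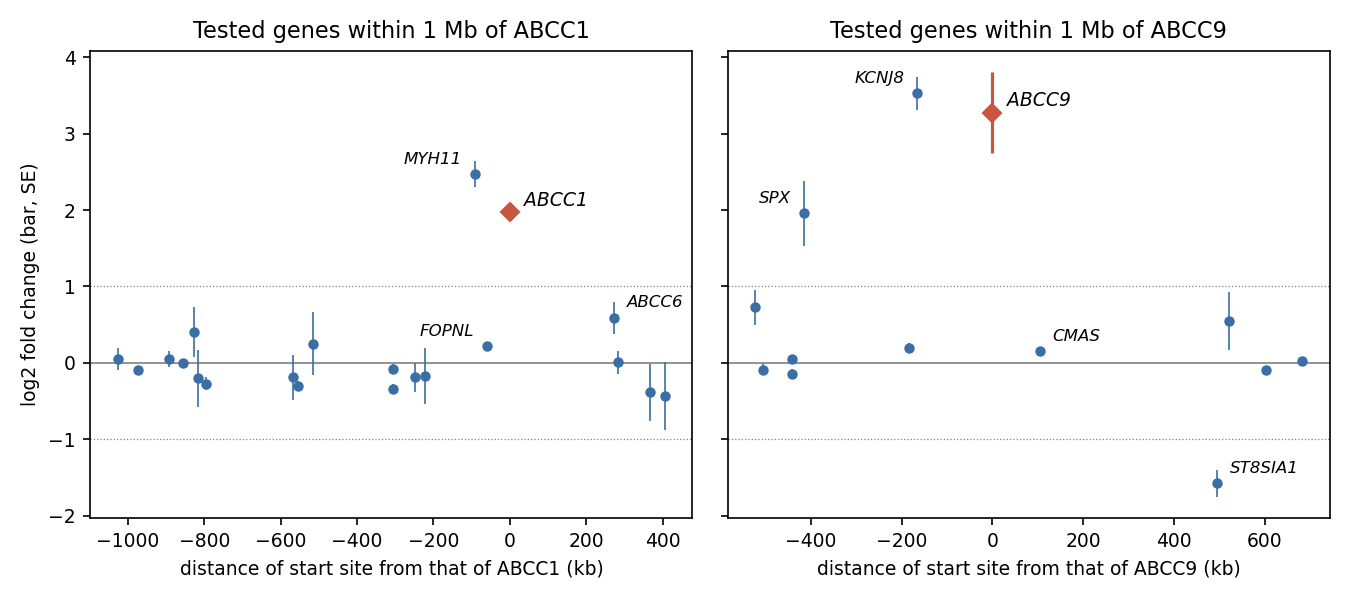
Log2 fold change, resistant over parental, of the tested genes within 1 Mb of ABCC1 (left) and ABCC9 (right) against the distance of their start sites from that of the member, with bars for the SE and dotted lines at the fold-change threshold. The members are the red diamonds. MYH11 on the left, at 2.47, and KCNJ8 on the right, at 3.53, stand near the members, while the median of the neighbors is −0.084 on the left and 0.10 on the right.

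Around ABCC9, 12 genes within 1 Mb were tested, with 2 called higher and 1 lower, against 2.53% and 2.84% of all genes tested. Called with KCNJ8 were SPX, a neuropeptide gene that went from 0.469 to 1.81 CPM (log2 fold change 1.96, FDR 2.41e-04 from edgeR), and ST8SIA1, the GD3 ganglioside synthase gene, which fell by 1.58 on the log2 scale (FDR 6.02e-10). SPX, too, was tested only because of its level in the resistant libraries. CMAS, the nearest tested gene on the other side of ABCC9, had a log2 fold change of 0.16. Around ABCC2 none of 22 tested genes was called in either direction. By FDR 5 of them were higher and 6 lower, where 17.1% of all genes tested were higher and 18.4% lower. DNMBP, next to ABCC2, was among the higher ones, at a log2 fold change of 0.68 (FDR 1.09e-08 from edgeR).

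No gene was called among the 22 near ABCC8 or the 7 near ABCC11, whereas 3 of the 31 near ABCC5 (B3GNT5, LAMP3 and MCF2L2) were called lower. Near ABCC4, 3 of 11 genes were called higher (SOX21, SOX21-AS1 and DCT), near ABCC3, 2 of 37 (CACNA1G and CA10), and near ABCC10, 1 of 49 (TTBK1). Of these genes, DCT, CACNA1G and TTBK1 passed the filter on low counts only through the resistant libraries and MCF2L2 only through the parental ones. Over all genes tested, 2.53% were called higher and 2.84% lower.

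The glutathione conjugates among the substrates of MRPs are made by enzymes of glutathione synthesis and conjugation. Of 23 such genes listed, 15 were tested, and none was called. By FDR 8 were higher and 0 were lower, where 17.1% of all genes tested were higher and 18.4% lower. Their median log2 fold change was 0.14, against 0.0038 over all genes tested. GCLC, the catalytic subunit of the rate-limiting enzyme of glutathione synthesis, rose from 87.8 ± 1.41 to 122 ± 3.94 CPM (SD, n = 3; log2 fold change 0.48, FDR 7.49e-13 from edgeR), while its modifier subunit GCLM was at 31.5 and 30.8 CPM (FDR 0.781). GSR, glutathione reductase, rose by a log2 fold change of 0.15, and the transferases GSTK1, GSTA4 and GSTM3 by 0.33, 0.47 and 0.71. GSTP1, which is commonly silenced in prostate cancer, had at most 1 count in a library.

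Of 11 regulators known for ABCC genes, 8 were tested and none was called. SP1, a factor of GC-rich promoters, was lower (log2 fold change −0.13, FDR 0.00202 from edgeR). NFE2L2, which encodes NRF2, an activator of ABCC1 and ABCC2 among others, was at 50.7 ± 2.73 and 50.1 ± 1.85 CPM (SD, n = 3; log2 fold change −0.02, FDR 0.849), and its inhibitor KEAP1 had an FDR of 0.0567. NR1I2, the xenobiotic receptor PXR, had at most 4 counts in a library.

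Scaffolds and ezrin-radixin-moesin proteins hold ABCC2 and ABCC4 at the membrane. Of 6 such genes tested, 5 were lower by FDR and none higher, where 18.4% of all genes tested were lower and 17.1% higher, and their median log2 fold change was −0.22. MSN, the gene of moesin, was called, at 10.3, 8.75 and 8.36 CPM in parental and 2.05, 3.13 and 1.79 CPM in resistant libraries (log2 fold change −1.99, SE 0.18, FDR 6.14e-12 from edgeR). RDX, SLC9A3R2, SLC9A3R1 and EZR had log2 fold changes of −0.22, −0.23, −0.22 and −0.12, and PDZK1 did not pass the test (FDR 0.191).

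The genes most like ABCC1 were sought by the distance between their log2 CPM profiles over the 6 libraries, each measured from its parental mean. The nearest was HGF, at a distance of 0.139, with a mean of 144 CPM in parental and 535 CPM in resistant cells and a log2 fold change of 1.89. GLRX, CCDC74B, PCSK1 and THBS1 followed at distances of 0.268 to 0.295. With 6 libraries in 2 groups, this likeness is mostly that of the fold change.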

How the data were processed

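RNA-Seq counts of 6 libraries were analysed, 3 of parental and 3 of resistant 22Rv1 cells, grouped by their labels. The sample labels name mouse as organism, but gene identifiers and methods are human, and the mouse reference at hand was not used, so no sequence is shown. Per the labels and the study's methods, the authors cleaned reads with fastp, mapped them to hg38 with HISAT2 2.0.5 and deposited raw counts per gene from featureCounts (1.5.0-p3). The deposited table also gives another quantity, the gene length in bases, used for FPKM. Strand setting and annotation release are not given in the sources used here. The number of per-sample columns not used was 0.

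Genes were filtered with filterByExpr (about 0.606 CPM in 3 libraries), scaled with TMM and compared with edgeR 4.0.16's quasi-likelihood test (R 4.3.3), with Benjamini-Hochberg adjustment over 17142 genes. The study's methods name limma, run as an alternative. On simulated counts in which 200 genes had a true log2 fold change of 2, 196 were recovered with 0 false calls over 17065 genes. Every simulated gene had the same small spread between libraries, and the other genes had no difference. The changed genes were drawn only from those above a minimum mean count. The simulation therefore cannot show how many false calls the real counts hold, least of all among genes with few counts. SEs are the log2 fold change over the root of F. Counting intervals and floors cover counting error only. Replicate libraries differed by more than sampling noise (chi-square per degree of freedom of 1.75 or more), and each was counted. This noise does not show that the libraries came from separate cultures.

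All members were named. From lists of KATP partners, glutathione genes, regulators and anchors, called genes were named, otherwise up to 4 with the lowest FDR. NFE2L2, KEAP1, NR1I2, GCLM, GSTM3, GSTP1 and PDZK1 were added after their values were seen. Some listed genes are not reported here. Members and lists were chosen with earlier results of these data known. The alternatives were library size alone, upper quartile, DESeq2 1.42.0, limma-voom and limma on log2(FPKM + 1) (limma 3.58.1), no filter, a minimum of 10 counts per gene and library, a prior count of 5, glmTreat, protein-coding genes only, the replicate number as a block, and each library left out in turn.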

Additional observations from a re-analysis of the deposited data

How the results depend on the processing

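Over 11 alternatives and 6 fits that each left out one library, no member changed direction. ABCC1 kept its call throughout, with a log2 fold change between 1.83 and 1.99. With glmTreat, which asks whether a change exceeds a log2 value of 1, ABCC2 (1.44), ABCC5 (−0.22), ABCC6 (0.59), ABCC8 (−1.32) and ABCC10 (0.48) did not pass, which left 2 members higher and 0 lower. With limma on log2(FPKM + 1), which by construction shrinks low genes, 1 member was called higher and 0 lower, ABCC6 (0.19) and ABCC8 (−0.14) did not pass, and 1 member was lower by FDR. ABCC2 was then at 0.36 and ABCC9 at 0.16. With DESeq2, ABCC6 had a log2 fold change of 0.59 and an adjusted p of 0.0737. ABCC9 was not tested under a minimum of 10 counts per gene and library. With one library left out, ABCC6 ranged from 0.44 to 0.77 and lost its significance without parental library 1 or 3 or resistant library 1 or 3.

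Over all genes, 434 were called higher and 487 lower, against 248 and 287 under that minimum, 178 and 144 with glmTreat and 116 and 64 with limma on log2(FPKM + 1). Without division by gene length, the share of ABCC1 was 34.5% in parental and 67.1% in resistant libraries. The median log2 fold change of genes around ABCC1 was −0.0027 within 2 Mb.

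Same-numbered libraries of the groups did not deviate together (correlations of −0.020 to −0.0081), and none correlated best with its own number. With the replicate block, 418 genes were called higher and 471 lower, ABCC2 was at 1.46 and ABCC9 at 3.33, and no call among the members changed. Depth limits the members with few counts, among them ABCC3, ABCC8, ABCC9 and ABCC11. The cause of other changes was not tested.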
